A study of Homo sapiens with 8 samples.

Results

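The response to serum was examined in HCT116 cells, an established human colon cancer line, that expressed a control short hairpin RNA (shControl). The comparison rests on 4 of the 8 arrays of the series, chosen by the labels for hairpin and time. In 2 of them the cells had been starved of serum for 40 h in McCoy's 5A medium, and in the other 2 the starved cells had then received the same medium with 10% FBS (fetal bovine serum) for 30 min. The other 4 arrays had the same times and treatments in HCT116 cells with a hairpin directed against CDK8 (shCDK8), a kinase of the Mediator complex, and entered only the estimate of spread and a comparison of the responses. Each line carried a single hairpin, and each array measured total RNA of a whole culture. A higher level can therefore come from more RNA per cell or from more cells with that RNA, and these cannot be told apart. Duplicates are labelled as such with no word on separate cultures, and the p-values therefore cover the spread of these arrays alone, which may be technical.

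Growth factors in serum activate receptors whose signal runs through RAS and the ERK kinases and, in parallel, through actin. These pathways act on transcription factors that are already present. ELK factors and MRTFs bind with SRF (serum response factor) at CArG boxes, and CREB binds at cyclic AMP response elements (CREs). The immediate-early genes that they switch on need no new protein synthesis. Many encode further transcription factors, and others encode phosphatases, RNA-binding proteins and inhibitors that shut the signal off again.

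Levels are RMA values on the log2 scale, a change is serum minus starved on that scale with the model's standard error (SE), and n is 2 arrays per group throughout. A gene is said to have risen or fallen where limma's p, adjusted by Benjamini-Hochberg over all 18417 genes, was below 0.05. With 2 arrays against 2, an exact permutation test of a single gene cannot give a two-sided p below 0.333, so the test relies on a spread shared across genes. Duplicates correlated across genes with r = 0.9972 in starved and 0.9979 in serum-treated shControl cells, and the median level of the 4 arrays lay between 7.07 and 7.1. Among markers of colon epithelium, the keratins KRT8, KRT18 and KRT19 and the adhesion protein EPCAM lay above the 99th percentile of starved levels. CDH1, CLDN4, CLDN3, CDX2, CDX1 and LGALS4 of the same list lay at percentiles 88.3, 86.3, 76.1, 67.6, 55.6 and 36.9. KRT20, VIL1 and CEACAM5, which mark differentiated cells, lay at percentiles 32.1, 27.5 and 18.6. The 10 measured markers of mesenchyme lay between percentiles 1.01 (LUM) and 67.95 (COL1A1), and the 9 of blood and endothelium between 2.16 (PTPRC) and 52.7 (CD68), with 8 of each list below the 50th percentile. The only probe set for CDK8, 7968199, is annotated to ADRA1B as well; it read 9.23 and 9.20 in starved and 9.22 and 9.19 in serum-treated shControl cells, against 7.09, 6.99, 7.04 and 7.06 in the 4 shCDK8 arrays.

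Serum for 30 min raised 78 genes (0.424% of those tested) and lowered 7 (0.038%). With a variance prior that follows intensity the count of risen genes was 122, and with a required change above 1.5-fold it was 21, with 0 fallen. Of the 78, 25 rose at least 2-fold (0.136% of all genes), and no gene fell that far. The 25 largest rises were transcription factors of the AP-1, EGR and NR4A families, MAPK phosphatases, the mRNA decay factor ZFP36, the secreted proteins CCN1, THBS1 and GDF15, and a few others. Rises of 3 to 4 log2 units were seen for 6 genes, of 2 to 3 for 6, of 1 to 2 for 13, of 0.75 to 1 for 14, of 0.5 to 0.75 for 32 and of 0.3 to 0.5 for 7. The median change over all genes was -0.01. In each of the 85 genes past the threshold, both serum arrays lay on the same side of both starved arrays, as they did in 39.7% of all genes tested.

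**Figure D1:**
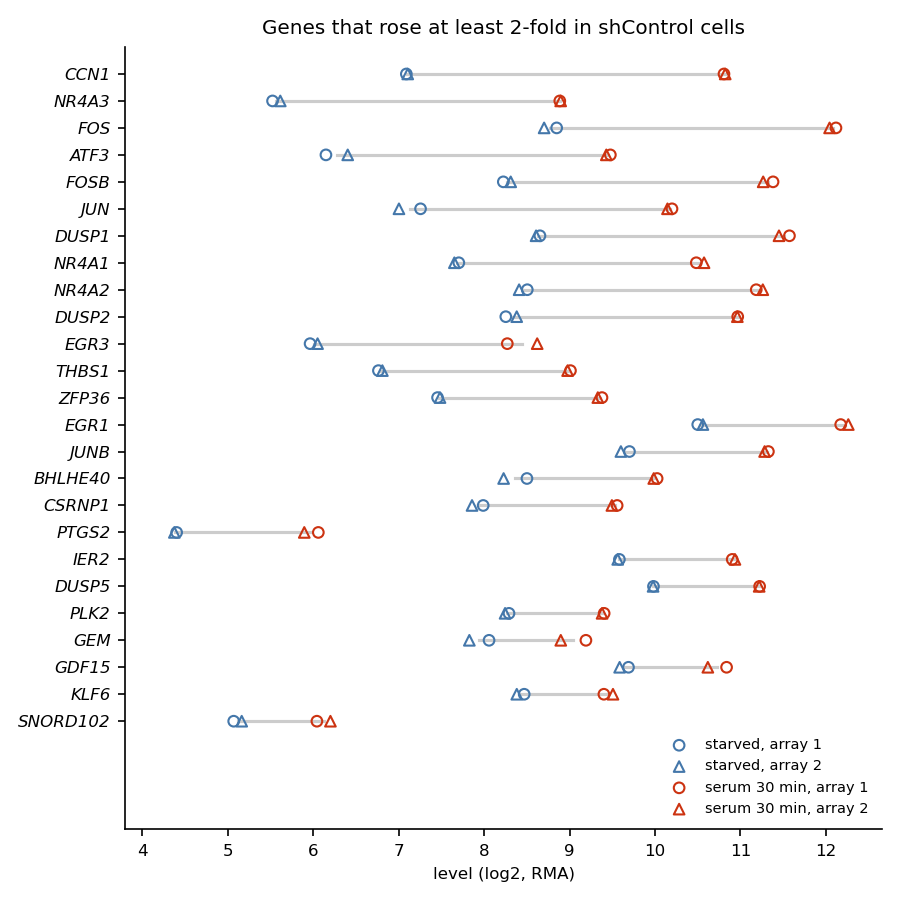
Level (log2) of the 25 genes that rose at least 2-fold, with 1 row per gene, in each of the 4 shControl arrays. Blue symbols are starved and red symbols serum-treated arrays, circles are array 1 and triangles array 2, and the grey line joins the group means; the red symbols lie to the right of the blue ones in every row, from 3.72 log2 units for CCN1 to 1.01 for SNORD102.

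The calls of the larger rises held when single arrays were left out, and most calls of the smaller rises did not. No change among the genes past the threshold reversed its sign in these fits. Each such fit leaves 1 array in a group and is a less sensitive test, so an ended call does not show that a change was absent. Of the 25 genes that rose at least 2-fold, 24 stayed past the threshold without any 1 of the 4 shControl arrays. The exception was GEM, whose adjusted p was 0.0503 without starved array 1, 0.134 without starved array 2 and 0.0856 without serum array 1. Of the 53 smaller rises, 6 stayed past it in each of these fits, those of DUSP4, SERTAD3, ANKRD37, ARC, PMAIP1 and KLF10. A set of 22 rises and 6 falls ended whichever of the 4 arrays was left out. The count of risen genes was 43 without starved array 1, 33 without starved array 2, 54 without serum array 1 and 39 without serum array 2, and the count of rises of at least 2-fold was 24 to 26.

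**Figure D2:**
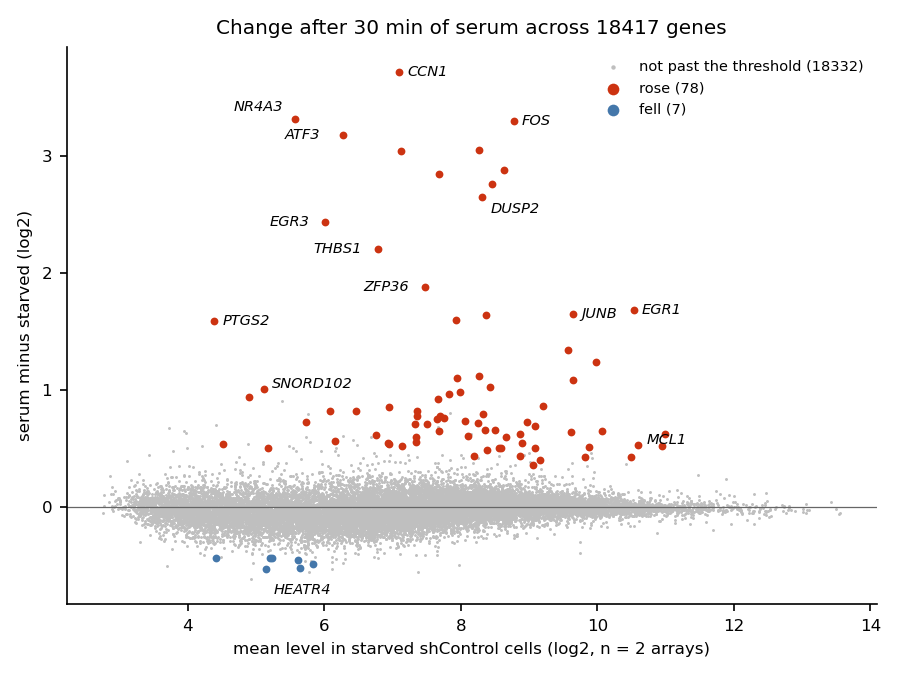
Change after 30 min of serum (log2, vertical axis) against the mean level in starved shControl cells (log2, horizontal axis) for 18417 genes. Red points are the 78 genes that rose, blue points the 7 that fell and grey points the rest; the falls lie at starved levels between 4.41 and 5.83, and the rises spread from 4.39 to 10.99.

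The promoters of the risen genes are shown because many of these genes moved together within 30 min, and because the factors that serum acts on have known target sequences. RefSeq windows of 300 bases, from 250 before to 50 after the most upstream listed start of each gene, were held for 57 of the 78 risen genes and for 14239 of all genes tested (build GRCh38.p14). Both strands were searched. Of the 25 genes that rose at least 2-fold, 19 had a window, and the rest, CCN1 among them, were not searched. The windows of DUSP1 and EGR1 are printed, since they were the only ones of the 19 that held a full CRE or a CArG box. DUSP1 lies on the minus strand at chr5:172771146-172771445, and the capitals mark the CRE, TGACGTCA, whose first base is at -125, counted with the start as +1 and no position 0. EGR1 lies on the plus strand at chr5:138465229-138465528, and the capitals mark a pair of CArG boxes that begin at -105 and -83.
DUSP1: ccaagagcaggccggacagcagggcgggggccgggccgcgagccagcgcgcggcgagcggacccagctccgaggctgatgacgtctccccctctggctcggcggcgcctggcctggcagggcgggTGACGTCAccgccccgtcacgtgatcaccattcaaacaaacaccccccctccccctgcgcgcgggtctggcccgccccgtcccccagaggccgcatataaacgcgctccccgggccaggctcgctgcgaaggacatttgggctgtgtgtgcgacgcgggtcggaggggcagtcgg
EGR1: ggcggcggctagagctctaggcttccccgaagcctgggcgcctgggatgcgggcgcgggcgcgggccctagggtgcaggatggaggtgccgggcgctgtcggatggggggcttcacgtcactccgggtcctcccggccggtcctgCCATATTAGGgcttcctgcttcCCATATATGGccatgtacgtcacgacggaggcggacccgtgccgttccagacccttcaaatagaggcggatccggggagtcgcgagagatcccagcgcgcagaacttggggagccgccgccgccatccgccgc

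The TATA box, TATAAA, was in 15 of the 57 windows (26.3%), against 9.11% of all windows. A narrower count kept to the gene's strand and to 40 to 20 bases before the start. That range was set after the positions of the matches were seen, so its shares only describe these genes. By this count the box was in 13 of 57 (22.8%) against 3.4% of all windows. It was in 6 of the 19 windows of genes that rose at least 2-fold (31.6%). Those 6 are printed from -50 to 10, with TATAAA in capitals. They are on the plus strand for FOS (chr14:75278778-75278837), FOSB (chr19:45467946-45468005), JUNB (chr19:12791436-12791495) and GDF15 (chr19:18386108-18386167), and on the minus strand for DUSP1 (chr5:172771186-172771245) and PTGS2 (chr1:186680414-186680473). These stretches were chosen after the matches were seen.
FOS: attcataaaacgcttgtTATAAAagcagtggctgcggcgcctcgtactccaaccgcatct
FOSB: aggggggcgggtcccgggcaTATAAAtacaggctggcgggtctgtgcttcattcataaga
DUSP1: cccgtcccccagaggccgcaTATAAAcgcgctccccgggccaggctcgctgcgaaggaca
JUNB: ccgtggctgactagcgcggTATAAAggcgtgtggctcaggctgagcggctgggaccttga
PTGS2: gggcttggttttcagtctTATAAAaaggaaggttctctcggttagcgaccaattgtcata
GDF15: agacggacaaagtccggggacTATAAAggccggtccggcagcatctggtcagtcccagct

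CArG boxes were in 3 of the 57 windows (5.26%), those of EGR1, SRF and ZNF548, against 1.23% of all windows. The stretch of SRF at chr6:43171209-43171288 on the plus strand, from -60 to 20, holds both of its matches, which are in capitals.
SRF: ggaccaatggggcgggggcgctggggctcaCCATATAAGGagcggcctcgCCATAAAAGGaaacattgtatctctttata
Both matches in SRF, the gene of the factor that binds this element, lie directly upstream of its start. The full CRE was in 5 windows (8.77%, against 2.62% of all), those of DUSP1, AVPI1, CHMP1B, PPP1R15A and CCNL1. Its half-site TGACG, which every full CRE contains, was in 24 (42.1% against 29.7%), and NR4A3 held 4 separate copies of it. The AP-1 site, TGACTCA or TGAGTCA, was in 4 windows (7.02% against 3.51%) and in 0 of the 19 of genes that rose at least 2-fold. A match to the NF-kB site was in 6 (10.5%, against 12.3% of all). With any listed start of a gene counted, it was in 10 (17.5%, against 16.1%), so its direction depended on the start taken. For the other motifs the share among risen genes was the higher one either way. The median GC content of the windows was 66.7% against 63% over all windows. A match is only a run of letters, and 300 bases leave out distal elements.

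**Figure D3:**
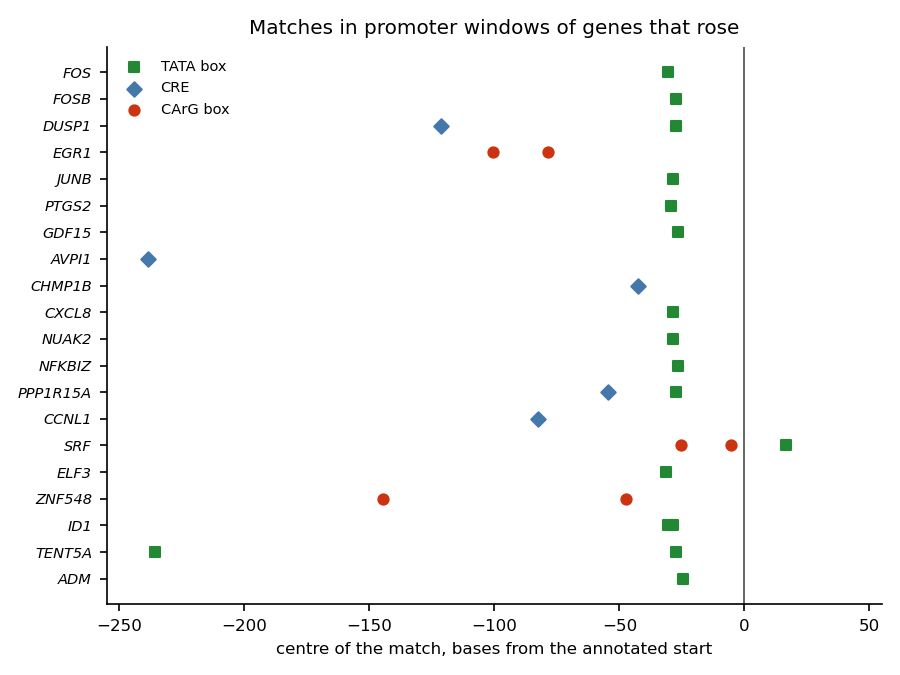
Position of matches to the TATA box (green squares), the full CRE (blue diamonds) and the CArG box (red circles) in bases from the annotated start (vertical line), with 1 row per risen gene that had any of them. Matches on either strand are drawn, with no mark for the strand. In 13 genes a green square on the strand of the gene lies between 40 and 20 bases before the start. Other green squares in that range are matches on the opposite strand. Green squares of SRF and TENT5A lie outside the range, and TENT5A has a further one within it.

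Transcription factors of the AP-1 family, dimers of FOS, JUN and ATF proteins that bind TGACTCA and CRE sites, held 4 of the 6 rises above 3 log2 units. Of 14 measured members of the AP-1 and ATF list, 7 rose, with a list median of 0.44 against -0.01 over all genes. Of all genes tested 0.424% rose. The lists were chosen with earlier results of these data known, so counts of risen members only describe these genes. FOS, the founding immediate-early gene, read 8.85 and 8.70 in starved cells and 12.12 and 12.04 after serum, a 9.88-fold rise (log2 3.30 ± 0.10 SE, adjusted p = 3.79e-07). ATF3, a stress-induced member that often represses, read 6.15 and 6.40 before and 9.48 and 9.43 after (9.05-fold, log2 3.18 ± 0.21, adjusted p = 6.74e-05). The starved arrays of ATF3 differed by far less than the step to either serum array. FOSB rose 8.31-fold, from 8.23 and 8.31 to 11.38 and 11.27 (adjusted p = 1.01e-06), and JUN rose 8.24-fold, from 7.26 and 7.004 to 10.20 and 10.15 (adjusted p = 1.17e-06). JUN is the main dimer partner of the FOS proteins. JUNB, a JUN paralog with a weaker activating domain, rose 3.15-fold, from 9.70 and 9.60 to 11.33 and 11.28 (adjusted p = 2.77e-05). The FOS paralogs FOSL2 (1.71-fold, adjusted p = 0.0302) and FOSL1 (1.40-fold, adjusted p = 0.0303), which accumulate later in many cells, rose less. Their calls ended without any 1 of the 4 arrays (adjusted p from 0.0623 to 0.240 and from 0.0515 to 0.2595). JUND, which is known for steady expression, read 9.64 and 9.60 before and 9.98 and 10.02 after (log2 0.38, adjusted p = 0.0547), and MAFF, a small MAF protein, changed by 0.39 (adjusted p = 0.107). ATF2, JDP2 and BATF, with changes of 0.02, 0.04 and -0.08, also missed the threshold.

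The zinc finger factors of the EGR family and the NR4A orphan nuclear receptors are the other classical immediate-early regulators. EGR3 read 5.96 and 6.05 in starved cells and 8.27 and 8.62 after serum, a 5.42-fold rise (log2 2.44 ± 0.12 SE, adjusted p = 8.47e-06). EGR1 started at a higher signal, 10.50 and 10.56, and reached 12.17 and 12.26 (3.22-fold, log2 1.69 ± 0.10, adjusted p = 3.30e-05). EGR4 (-0.07) and the corepressors NAB2 and NAB1 (0.22 and 0.12), which bind EGR proteins and damp them, did not pass. Thus 2 of 5 on this list rose (median 0.22), against 0.424% of all genes tested. All 3 NR4A receptors rose, with a median of 2.85. NR4A3 read 5.52 and 5.61 before and 8.89 and 8.90 after, a 10.0-fold rise (log2 3.32 ± 0.15, adjusted p = 4.03e-06). Its starved signal lay at percentile 24.97, and whether it was above background was not tested. NR4A1 went from 7.70 and 7.65 to 10.48 and 10.57 (7.21-fold, adjusted p = 1.17e-06), and NR4A2 from 8.51 and 8.41 to 11.19 and 11.26 (6.80-fold, adjusted p = 6.75e-06). These receptors act without a known natural ligand. In all 5 of these genes the gap between the groups was several times the gap between duplicates.

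Among 23 other immediate-early regulators, 11 rose, against 0.424% of all genes tested, with a list median of 0.46. BHLHE40, a basic helix-loop-helix repressor, rose 3.12-fold, from 8.50 and 8.23 to 10.03 and 9.99 (adjusted p = 6.92e-05), and CSRNP1, a nuclear factor first known as an AXIN1-induced gene, rose 3.04-fold, from 7.99 and 7.86 to 9.56 and 9.50 (adjusted p = 3.76e-05). IER2 rose 2.54-fold, from 9.58 and 9.56 to 10.90 and 10.94 (adjusted p = 5.85e-05). ARC, best known as a synaptic protein whose gene responds to activity, read 7.57 and 7.74 before and 8.40 and 8.41 after (1.68-fold, adjusted p = 0.00102). The other risen members were ID3 and ID1, inhibitors of DNA binding (log2 0.80 and 0.51), SRF itself (0.62), the repressor NFIL3 (0.61), the survival protein MCL1 (0.53), IER3 (0.52) and ETS2 (0.36). SRF read 8.90 and 8.84 in starved and 9.41 and 9.58 in serum-treated cells (1.54-fold, adjusted p = 0.00960). The calls of MCL1 (adjusted p from 0.0514 to 0.0956), IER3 (0.0604 to 0.1416), ID1 (0.0604 to 0.1477) and ETS2 (0.1664 to 0.2969) ended without any 1 of the 4 arrays. That of ID3 ended without starved array 2 (0.1005) or serum array 1 (0.0832), and that of NFIL3 without starved array 2 (0.189), serum array 1 (0.202) or serum array 2 (0.0575). That of SRF ended without starved array 1 (0.0630), starved array 2 (0.114) or serum array 2 (0.106). The list count was 6 without starved array 1 and 5 without any 1 of the other 3. MYC, which drives growth genes and is a textbook serum target, read 11.08 and 11.03 before and 11.20 and 11.18 after (log2 0.14, adjusted p = 0.558). HES1, a NOTCH-responsive repressor, had a larger change that also missed the threshold (0.69, adjusted p = 0.0735), with starved arrays of 7.43 and 7.91 against 8.31 and 8.40 after serum. IER5, a further immediate-early gene, changed by -0.03. Of 13 Kruppel-like factors, KLF6 (2.04-fold, from 8.47 and 8.38 to 9.40 and 9.51) and KLF10 (1.56-fold, from 9.65 and 9.59 to 10.29 and 10.24) rose, with adjusted p values of 0.000659 and 0.00141. KLF4 and KLF2, at 0.39 and 0.24, did not pass.

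**Figure D4:**
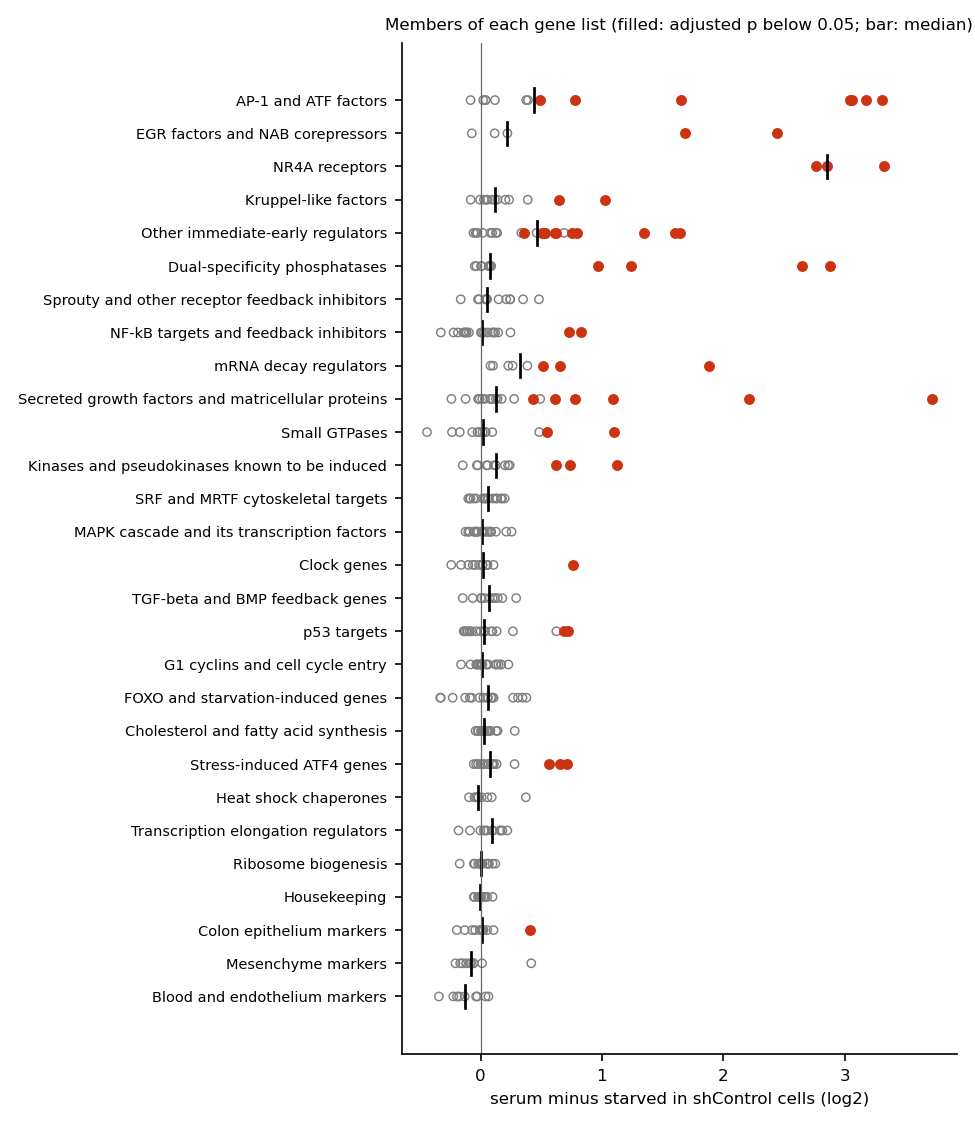
Change after serum (log2, horizontal axis) of each measured member of the 28 gene lists, with 1 row per list. Red filled points are genes past the threshold, grey open points the rest, and the black bar is the list's median, which is largest for the NR4A receptors at 2.85 and lowest for the blood and endothelium markers at -0.13.

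Feedback inhibitors of growth factor signalling were described in 2 lists, and the difference between the lists was not tested. Dual-specificity phosphatases remove phosphate from MAP kinases, and 4 of 12 rose (median 0.08). DUSP1, which acts on p38, JNK and ERK in the nucleus, read 8.65 and 8.61 before and 11.57 and 11.45 after serum, a 7.37-fold rise (log2 2.88 ± 0.10 SE, adjusted p = 1.01e-06). DUSP2, a nuclear phosphatase known from activated lymphocytes, rose 6.27-fold, from 8.25 and 8.38 to 10.97 and 10.96 (adjusted p = 3.71e-06). DUSP5 rose 2.37-fold, from 9.98 in both starved arrays to 11.22 in both serum arrays (adjusted p = 5.45e-05), and DUSP4 rose 1.96-fold, from 7.88 and 7.79 to 8.83 and 8.77 (adjusted p = 0.000345). DUSP5 and DUSP4 are nuclear too. The cytoplasmic ERK phosphatase DUSP6 changed by 0.09 and DUSP7 by -0.03, neither past the threshold. Of 13 Sprouty, SPRED and SOCS proteins and other receptor inhibitors, 0 rose (median 0.05, smallest adjusted p = 0.0605). SPRY4 read a change of 0.35 and SPRY2 of 0.48 (adjusted p = 0.249). The MAPK cascade itself, 23 genes from receptors and adaptors to ELK1 and CREB1, had 0 past the threshold (median 0.02). As 0.424% of all genes tested rose, 0 calls among 13 or 23 genes is near the share over all genes.

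Regulators of mRNA decay give a further layer of feedback, since many immediate-early mRNAs carry AU-rich elements that these proteins recognise. ZFP36 (tristetraprolin) read 7.46 and 7.48 before and 9.38 and 9.33 after serum, a 3.69-fold rise (log2 1.89 ± 0.07 SE, adjusted p = 1.17e-06). Its paralog ZFP36L1 (1.43-fold) and TOB1 (1.57-fold), an adaptor of the deadenylase complex, rose less, with adjusted p values of 0.00823 and 0.00784. ZFP36L1 was lost without starved array 2 (0.0936), serum array 1 (0.0624) or serum array 2 (0.0956), and TOB1 without starved array 2 (0.0659) or serum array 2 (0.0950). In all, 3 of 8 rose (median 0.32), against 0.424% of all genes tested. TENT5A, which lengthens poly(A) tails, also rose (1.42-fold, adjusted p = 0.0150), a call that ended without any 1 of the 4 arrays (0.101 to 0.152).

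Genes for secreted proteins held the largest rise of all. CCN1 (CYR61), a matrix protein that binds integrins, read 7.09 and 7.11 in starved cells and 10.81 and 10.82 after serum, a 13.2-fold rise (log2 3.72 ± 0.10 SE, adjusted p = 2.91e-07). Its close relative CCN2 (CTGF), which shares many regulators with it, read 7.25 and 7.26 before and 7.43 and 7.43 after (log2 0.17, adjusted p = 0.589). THBS1, the matrix protein thrombospondin, rose 4.62-fold, from 6.76 and 6.81 to 9.01 and 8.98 (adjusted p = 5.30e-05), and GDF15, a stress cytokine of the TGF-beta family, rose 2.13-fold, from 9.69 and 9.59 to 10.84 and 10.62 (adjusted p = 0.000692). HBEGF, an EGF receptor ligand, read 7.54 and 7.17 before and 8.18 and 8.09 after (1.71-fold, adjusted p = 0.0149). Its call ended without starved array 2 (0.0659), serum array 1 (0.131) or serum array 2 (0.0956). The cytokine LIF (1.53-fold) and the vasoactive peptide gene ADM (1.35-fold) rose too, and both calls ended without any 1 of the 4 arrays (adjusted p from 0.0594 to 0.264 and from 0.0691 to 0.193). In all, 6 of 21 rose (median 0.13), against 0.424% of all genes tested. PTGS2 (cyclooxygenase-2), which makes prostaglandin precursors, was on none of the lists and rose 3.01-fold from a dim signal, 4.40 and 4.38, to 6.06 and 5.90 (adjusted p = 0.000227). Its starved signal lay at percentile 10.25, and whether it was above background was not tested, so the fold holds for the signals only.

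Induced kinases and small GTPases gave a few rises. PLK2, a polo-like kinase, rose 2.18-fold, from 8.29 and 8.25 to 9.41 and 9.38 (adjusted p = 4.17e-05). PLK3 (1.67-fold) and the pseudokinase TRIB1 (1.54-fold) rose with adjusted p values of 0.00502 and 0.00450, so that 3 of 13 on this list rose (median 0.13). PLK3 was lost without starved array 2 (0.0789) or serum array 2 (0.0660), and TRIB1 without starved array 1 (0.0506), starved array 2 (0.0592) or serum array 2 (0.0558). NUAK2, an AMPK-related kinase on no list, rose 1.77-fold (adjusted p = 0.0169) and was lost without starved array 1 (0.146), starved array 2 (0.1135) or serum array 1 (0.0814). GEM, an RGK GTPase that inhibits calcium channels, read 8.06 and 7.83 before and 9.19 and 8.90 after (2.15-fold, adjusted p = 0.0104, with the arrays that end its call given above). RHOB, a short-lived small GTPase, rose 1.46-fold (adjusted p = 0.00959, and 0.0750 to 0.0956 without any 1 of the 4 arrays), while RHOA, RHOC, RAC1 and CDC42 changed by -0.07, -0.01, -0.03 and 0.10, none past the threshold. GEM and RHOB made 2 of 13 small GTPases, and of all genes tested 0.424% rose.

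The cytoskeletal targets that SRF shares with MRTFs had 0 of 17 past the threshold at 30 min (median 0.06), with ACTB at 0.10, VCL at 0.06 and TAGLN at 0.20. Their smallest adjusted p was 0.475. As 0.424% of all genes tested rose, 0 of 17 is near the share over all genes. Among 19 NF-kB targets and inhibitors, the chemokine CXCL8 (1.77-fold) and the nuclear inhibitor NFKBIZ (1.66-fold) rose. CXCL8 read 6.04 and 6.15 before and 6.98 and 6.86 after (adjusted p = 0.0240, and 0.109 to 0.195 without any 1 of the 4 arrays), and NFKBIZ 5.72 and 5.76 before and 6.37 and 6.56 after (adjusted p = 0.0133; 0.1145 without starved array 1, 0.114 without starved array 2 and 0.132 without serum array 2). NFKBIA and TNFAIP3, the usual early NF-kB targets, changed by 0.15 and 0.06 and did not pass. Among 15 clock genes, PER1, which has a CREB-driven acute response, rose 1.70-fold, from 7.69 and 7.82 to 8.45 and 8.59 (adjusted p = 0.00724; 0.0744 without starved array 1 and 0.0814 without serum array 2), while PER2 changed by 0.05.

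Stress and growth arrest genes gave 5 rises on a pair of lists, while 0.424% of all genes tested rose. Of 19 p53 targets, PMAIP1 (NOXA), which promotes cell death, rose 1.65-fold (9.02 and 8.93 to 9.71 and 9.68, adjusted p = 0.00116) and GADD45A 1.61-fold (9.11 and 9.05 to 9.82 and 9.72, adjusted p = 0.00409; 0.0659 without starved array 2). GADD45B of the same list changed by 0.62 and did not pass (limma adjusted p = 0.235). CDKN1A and MDM2, the most used p53 markers, changed by 0.27 and 0.09 without passing. Of 16 stress genes of the ATF4 pathway, PPP1R15A, a regulator of the phosphatase that restores translation, rose 1.64-fold (adjusted p = 0.00784). It was lost without starved array 1 (0.0758), serum array 1 (0.0734) or serum array 2 (0.0660). DDIT4, an inhibitor of mTORC1, rose 1.57-fold (adjusted p = 0.0149) and was lost without starved array 2 (0.1477), serum array 1 (0.128) or serum array 2 (0.108). DDIT3, a factor of the unfolded protein response, rose 1.48-fold (adjusted p = 0.0425, and 0.153 to 0.317 without any 1 of the 4 arrays). The amino acid genes ASNS and PSAT1 of the same list changed by 0.02 and -0.06, and ATF4 itself by 0.00.

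Further lists held other classes of genes, some of them tied to later steps of the serum response. Of all genes tested 0.424% rose, so 0 calls in a list of this size is near that share and is no result about its members. The lists of G1 cyclins and cell cycle entry (22 genes, median 0.01), FOXO and starvation-induced genes (18, median 0.06), cholesterol and fatty acid synthesis (16, 0.03), ribosome biogenesis (15, 0.00), transcription elongation regulators (13, 0.10), TGF-beta and BMP feedback genes (11, 0.07), heat shock chaperones (10, -0.02) and housekeeping genes (12, 0.00) had 0 members past the threshold. Among the heat shock chaperones DNAJB1 came closest to the threshold, with a change of 0.37 (limma adjusted p = 0.0548). CCND1, the cyclin that links growth factors to the cell cycle, read 10.68 and 10.71 before and 10.65 and 10.75 after serum. TXNIP and PIK3IP1, starvation-induced genes, each had a change of -0.33 that did not pass (adjusted p = 0.361 and 0.475). SESN3 and BCL6 of the same list went the other way, by 0.38 and 0.35, and did not pass either (limma adjusted p = 0.174 and 0.227). In all, 11 of the 18 changes on that list were above 0. Among colon epithelium markers the junction protein CLDN4 rose 1.32-fold (adjusted p = 0.0496), a call that ended without any 1 of the 4 arrays (0.0744 to 0.345). The marker lists of mesenchyme (10 genes, median -0.08) and of blood and endothelium (9, median -0.13) had 0 past the threshold.

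Of the 78 risen genes, 26 were on none of the lists. After PTGS2, the largest rises among these were of SNORD102, a small nucleolar RNA (5.07 and 5.16 to 6.04 and 6.20, 2.01-fold, adjusted p = 0.000345), AVPI1 (1.98-fold), the antisense RNA LIMD1-AS1 (1.92-fold), SERTAD3, a transcriptional coregulator (1.90-fold), CHMP1B, an ESCRT-III subunit (1.82-fold), ANKRD37 (1.81-fold), NUAK2, RNVU1-15 (1.77-fold) and the tumour suppressor ING1 (1.64-fold). SERTAD3 read 7.59 and 7.75 before and 8.53 and 8.66 after, and ANKRD37 read 7.01 and 6.89 before and 7.88 and 7.74 after, with the serum arrays of both above their starved arrays by more than 0.7. The call of AVPI1 ended without starved array 2 (adjusted p = 0.0673), and that of CHMP1B without starved array 2 (0.0592) or serum array 2 (0.0525). Those of LIMD1-AS1 (0.142, 0.142 and 0.128), RNVU1-15 (0.124, 0.307 and 0.109) and ING1 (0.0736, 0.0846 and 0.0642) each ended without starved array 1, starved array 2 or serum array 2, in that order. By RefSeq class, 70 of 16902 protein-coding genes rose (0.414%), 1 of 632 long noncoding RNAs (0.158%), 3 of 175 small nucleolar RNAs (1.71%) and 3 of 20 small nuclear RNAs (15%). The small nuclear RNAs were RNVU1-15, RNVU1-19 and RNVU1-4, variant U1 genes that are near-identical copies, so a probe set may read more than the gene it is named for and these values are uncertain. Without starved array 1 none of these 3 calls held, and of the small nucleolar RNAs only that of SNORD102 held. RNVU1-4 (adjusted p from 0.0903 to 0.143) and SNORA41 (0.0881 to 0.284) ended without any 1 of the 4 arrays. RNVU1-19 (0.109, 0.2435 and 0.146) and SNORD14C (0.0903, 0.246 and 0.2595) ended without starved array 1, starved array 2 or serum array 2, in that order. RNVU1-19 and RNVU1-4, on chromosome 1, were the only pair of risen genes next to each other in the gene order. Small RNAs and antisense genes on these arrays can also share probes or strands with host genes, which was not tested.

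The 7 genes that fell were OR2W5P, HEATR4, XAGE-4, RHD, ZNF674, DSCR4 and CPB1, with changes between -0.53 and -0.43. HEATR4 read 5.14 and 5.17 before and 4.67 and 4.58 after serum (1.44-fold lower, adjusted p = 0.0153), and OR2W5P, an olfactory receptor pseudogene, read 5.67 and 5.63 before and 5.15 and 5.11 after (1.44-fold lower, adjusted p = 0.0121). XAGE-4, of a cancer-testis antigen family, read 5.80 and 5.86 before and 5.32 and 5.37 after (1.40-fold lower, adjusted p = 0.00852). RHD (red cell antigen), ZNF674 (a zinc finger protein), DSCR4 and CPB1 (a pancreatic carboxypeptidase) fell with adjusted p values of 0.0496, 0.0227, 0.0496 and 0.0496. None of them is on the lists, all had starved levels between percentiles 10.6 and 28.9, and the risen genes had a median percentile of 70.3. Dim genes as a whole had slightly negative changes. In 4 classes of equal size by starved level, from dim to bright, the median change was -0.04, -0.06, 0.00 and 0.01. After cyclic loess, which levels such trends, the 4 medians lay between -0.0011 and 0.0092, and 3 of the 7 falls were called. The part of this trend in the falls was not tested. With the 4 shControl arrays alone, 3 of the 7 were called. With dim genes left out, 1 of the 7, XAGE-4, was still tested, and it was called together with 2 other genes. No fall held without each array in turn: 6 ended without any 1 of the 4 shControl arrays, and XAGE-4 ended without starved array 2 (adjusted p = 0.0973), serum array 1 (0.0886) or serum array 2 (0.0692).

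The same step in shCDK8 cells raised 46 genes (0.25%), of which 40 had also risen in shControl cells. The comparisons share no arrays, but they share the estimate of spread. The 78 genes were chosen for their rise in shControl cells, so values in the other line may be lower in part by selection, which was not tested. Their median change was 0.74 in shControl and 0.52 in shCDK8 cells, against -0.01446 and -0.00997 over all genes. Of the 78, 76 had the same sign and 64 were smaller in shCDK8 cells. The same shares were not counted over all genes, so these counts have no background to be read against. A test of the difference itself passed for no gene (0 of 18417, 0% in limma's fit, with 703 genes at an unadjusted p below 0.05 and a smallest adjusted p of 0.203). With a variance prior that follows intensity it passed for 7 genes, and without serum array 2 of shCDK8 for 1, DUSP2.

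**Figure D5:**
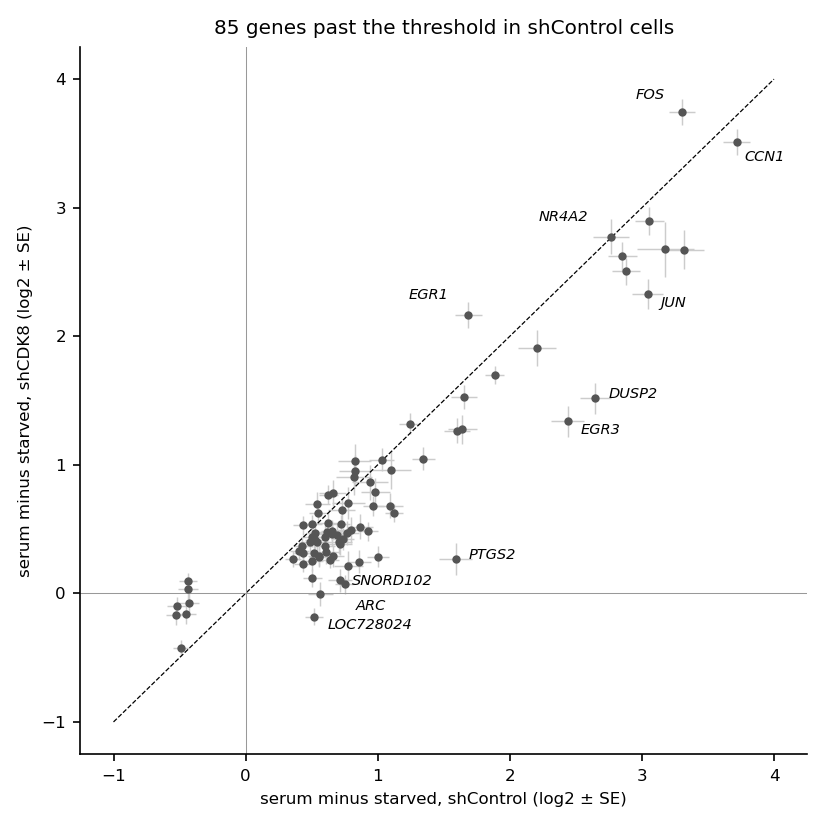
Change after serum (log2, with SE bars) in shCDK8 cells (vertical axis) against that in shControl cells (horizontal axis) for the 85 genes past the threshold in shControl cells. The dashed line marks equal changes; FOS (3.30 in shControl and 3.74 in shCDK8) and EGR1 (1.69 and 2.17) lie above it, and DUSP2 (2.65 and 1.52), EGR3 (2.44 and 1.34) and PTGS2 (1.59 and 0.27) lie below it.

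The responses of single genes in both lines are given side by side, and none of these differences passed in the main test. PTGS2 read 4.31 and 4.65 before and 4.60 and 4.88 after serum in shCDK8 cells, arrays that overlap, against a rise of 1.59 in shControl cells (difference -1.32 ± 0.18 SE, adjusted p = 0.203). The rise of DUSP2 was 1.52 in shCDK8 and 2.65 in shControl cells (difference -1.13 ± 0.17, adjusted p = 0.203; 0.0123 with the intensity trend and 0.0212 without serum array 2 of shCDK8). EGR3 rose 1.34 and 2.44 (difference -1.10 ± 0.17, adjusted p = 0.295; 0.0282 with the trend). ARC read 7.61 and 7.60 before and 7.67 and 7.68 after in shCDK8 cells, a change of 0.07 that did not pass (difference -0.68 ± 0.10, adjusted p = 0.203; 0.0282 with the trend). These 4 genes, LOC728024, PLK2 and CCN2 made up the 7 under the trend. The value for CCN2 had the opposite sign. It read 7.36 and 7.20 before and 8.23 and 8.43 after in shCDK8 cells, a rise of 1.05 there (adjusted p = 0.000396) against 0.17 in shControl cells (difference 0.87 ± 0.12, adjusted p = 0.203). The other genes that passed in shCDK8 and not in shControl cells were KLF4, CITED2, RGS2, UGT2B10 and EREG, and none passed the test of the difference. FOS rose 3.30 in shControl and 3.74 in shCDK8 cells (difference 0.44 ± 0.14, adjusted p = 0.9998). NR4A2 rose 2.77 in both (difference 0.01 ± 0.19).

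Of the 13837 probe sets that the annotation pairs with no gene or with several, 4 rose (0.0289%) and 0 fell in a fit of their own with limma. Their values are in the closing section.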

How the data were processed

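Total RNA of 8 samples was measured on Affymetrix human gene arrays, with groups as labelled. The authors deposited log2 values, 1 per probe set and array, from RMA per the submitters' processing notes; RMA corrects background, equalises the distributions of the arrays and summarises the probes of a set. Not given in the sources used here are the RMA version, the build, and whether all arrays entered 1 RMA run. Of 33297 probe sets, 19460 were paired with 1 gene by the array annotation, 1754 with several, and 12083 were not listed. The probe set with the highest mean stood for a gene with several (769 genes), which left 18417 genes, and the other 13837 probe sets were fitted apart.

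A model with 4 group means over all 8 arrays was fitted (R 4.3.3, limma 3.58.1, lmFit and eBayes, 4 residual and 5.49 prior degrees of freedom), with no filter. P-values were two-sided and adjusted over all genes. Genes to be named were the rises of at least 2-fold, the falls and the 10 largest rises outside the lists. From each of 28 gene lists, up to 5 members with the largest changes were added, those past the threshold first. Some of these list members, such as RND3, SKIL and INSIG1, are not described above. Other genes past the threshold, and a few list members beside them, were chosen after their values were seen. The comparison and the lists were chosen with earlier results of these data known. Starved-level percentiles rank probe set signals, which also depend on the probes. Whether a signal was above background was not tested for any gene, so folds from dim signals hold for the signals only. Motifs were searched in RefSeq promoter windows with Python 3.11.15, and figures were drawn with matplotlib 3.10.9. The alternatives were 8 other settings of the fit and leaving out each of the 8 arrays. A group left with 1 array was assumed to vary like the others. The number of arrays limits the precision.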

Additional observations from a re-analysis of the deposited data

Results flagged for a closer look

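Outside the 18417 genes, 4 of the 13837 probe sets without a single gene rose after serum in shControl cells, and these signals belong to none of the gene comparisons. Probe set 7933872, which the annotation does not list, read 6.62 and 6.69 in starved and 9.86 and 9.77 in serum-treated shControl cells (8.94-fold, log2 3.16 ± 0.15 SE, limma adjusted p = 0.00531). In shCDK8 cells it changed by 1.48 (adjusted p = 0.177, difference between the lines adjusted p = 0.9475). Probe set 7908917, also not listed, read 8.15 and 8.07 before and 10.50 and 10.47 after serum (5.18-fold, log2 2.37 ± 0.14, limma adjusted p = 0.00772). Its change in shCDK8 cells was 1.08 (adjusted p = 0.256). Probe set 8070665, paired with both LOC102724428 and SIK1, had a change of 1.74 (3.35-fold, limma adjusted p = 0.0326) and 1.60 in shCDK8 cells. Probe set 7894601, not listed, had a change of 1.74 (3.34-fold, limma adjusted p = 0.00531) and 0.85 in shCDK8 cells. In each of the 4, both serum arrays of shControl cells lay above both starved arrays, as in 17.4% of the 13837 probe sets. The last 2 were named after their values were seen.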

How the results depend on the processing

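No alternative reversed a change among the genes past the threshold. The main counts were 85 genes past the threshold, 78 risen and 7 fallen, 25 risen at least 2-fold, and 0 for the difference between the lines. A variance prior with an intensity trend gave 128, 122 risen, and 7 for the difference. Requiring a change above 1.5-fold gave 21 genes, of which 21 rose and 0 fell. The falls numbered 3 with the 4 shControl arrays alone, 3 among genes above the 25th percentile (where 1 of the 7 was still tested and 2 of the 3 were other genes), 3 after cyclic loess and 4 after median centring. Leaving out 1 of the 8 arrays gave 33 to 85 genes, 33 to 79 risen, 0 to 6 fallen, and 0 to 1 for the difference. The rises of at least 2-fold numbered 21 to 26 over all alternatives. With the replicate number as a block, 75 genes passed, 71 of them among the 85, with 70 risen, 5 fallen and 0 for the difference. Same-numbered starved and serum arrays deviated together with r = 0.085 in shControl and 0.126 in shCDK8 cells, so the numbers were not taken as pairs. The causes of these changes were not tested. Precision is limited by 2 arrays per group and, for the falls, by signals near the dim end of the scale.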
